A study of Homo sapiens with 12 samples.

Results

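The 10 genes described here encode the subunits of the transcription factor NF-kB (NFKB1, NFKB2, RELA, RELB and REL), its cytoplasmic inhibitors NFKBIA and NFKBIE, the deubiquitinating enzymes TNFAIP3 and CYLD, which dampen the signal, and the adaptor TRAF1. They were chosen by name, and every probe annotated to one of these symbols was taken: 15 probes of 47321, of which 13 were bright enough to be tested among 19357 probes of the whole array. NFKB2 had 3 probes, called a, b and c here, and REL, TRAF1 and CYLD had 2 each, called a and b. NFKB2 probe b and CYLD probe b were not detected on any of the 12 arrays and were not tested.

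NF-kB is a family of dimers that inhibitor proteins such as IkB-alpha, the product of NFKBIA, hold in the cytoplasm until kinases mark the inhibitor for destruction. The freed dimers switch on genes that include NFKBIA and TNFAIP3 themselves, so that the pathway builds its own brake, and a slower alternative branch processes the NFKB2 precursor to pair with RELB. In multiple myeloma, a cancer of plasma cells, mutations in regulators of both branches are recurrent, and the levels of several of these transcripts are commonly read as a measure of the pathway's activity.

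Gene expression was measured on 12 Illumina HumanHT-12 arrays in 3 human multiple myeloma lines, each with 2 DMSO controls and 2 samples treated for 8 h with PRIMA-1Met, also called APR-246, a thiol-binding compound studied for restoring function to mutant p53. MM.1S, labelled p53 wild type, was treated at 20 µM, and U266, labelled p53 mutant, and 8226R5, labelled p53 null, at 40 µM. Dose, line and p53 status therefore cannot be told apart where MM.1S is set against the other lines, and line and p53 status cannot be told apart between U266 and 8226R5. The cells were seeded as duplicates and the labels do not say whether they were separate cultures. The p-values below thus rest on the scatter of duplicates, and that scatter may be technical.

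The arrays detected between 11815 and 16025 probes (detection p under 0.01), and the lowest counts, 11815 and 12093, were those of the treated MM.1S arrays. Their 90th percentiles of signal were 212 and 215 intensity units, against 836 and 789 in the MM.1S controls, and their replicates differed more (SD of the difference 0.38 log2 units) than those of the other groups (0.17 to 0.23). Of 8 plasma cell markers, all were detected on every MM.1S array and 7 on every U266 array, without CD38. The arrays labelled 8226R5 had 4 of the 8 undetected, namely TNFRSF17, IRF4, CD38 and JCHAIN. In the 8226R5 controls the T cell gene CD3D had a mean log2 value of 12.10 and the epithelial gene EPCAM one of 13.48, and neither gene was detected in the other lines. The summed level of 24 markers of other cell types, as a sum of unlogged values, was 1922 to 1924 in MM.1S controls and 5340 to 5393 after treatment, 3148 to 3178 and 3485 to 3629 in U266, and 17266 to 18311 and 16913 to 17696 in 8226R5. Within that sum in MM.1S, the liver gene ALB rose by 4.79 log2 units and the NK cell receptor FCGR3A, undetected in the controls, read 3.22 higher, while 20 of the 24 markers were undetected on both control arrays and 20 on both treated arrays. Of 13 such markers tested, 3 rose and 2 fell in MM.1S by limma, beside 25.9% and 46% of all tested probes. The third rise was that of CD14 (0.65). CD2 (-0.60), of the T and NK cell list, and FCER1G (-0.98) were lower and undetected after treatment. CD3D, CD3E, NKG7 and KLRD1, of that same list, were undetected on all MM.1S arrays. The part of these markers in the results below was not tested, and in bulk RNA fewer cells of a type and less RNA per cell cannot be told apart.

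For 8 of the 10 genes a promoter window of 300 bases, from 250 bases before to 50 after the start of transcription, was available from RefSeq on build GRCh38.p14, 16 windows in all. The kB consensus, the 10-letter motif that NF-kB dimers bind, was searched on both strands, and overlapping matches were merged. It was present in 8 of the 16 windows, of 6 genes (NFKBIA, NFKB1, NFKB2, REL, TNFAIP3 and CYLD), against 5.91% of all 35116 windows in the table, and 7.09% of the 27305 genes with a window had one that held it. No match lay in the windows of RELA and TRAF1, and NFKBIE and RELB had no window in the table. The windows of 4 of these genes are shown because the results below turn on the responses of these genes. They are printed 5′ to 3′ on the strand of the gene, and the capitals mark the matches to the kB consensus.
NFKBIA (chr14:35404700-35404999, minus strand): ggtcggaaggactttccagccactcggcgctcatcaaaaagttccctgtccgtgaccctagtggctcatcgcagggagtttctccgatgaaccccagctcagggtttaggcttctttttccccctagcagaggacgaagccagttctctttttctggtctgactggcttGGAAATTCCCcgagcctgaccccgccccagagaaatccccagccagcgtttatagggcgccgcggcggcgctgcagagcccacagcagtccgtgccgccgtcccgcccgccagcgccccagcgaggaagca
NFKB2 (chr10:102394328-102394627, plus strand): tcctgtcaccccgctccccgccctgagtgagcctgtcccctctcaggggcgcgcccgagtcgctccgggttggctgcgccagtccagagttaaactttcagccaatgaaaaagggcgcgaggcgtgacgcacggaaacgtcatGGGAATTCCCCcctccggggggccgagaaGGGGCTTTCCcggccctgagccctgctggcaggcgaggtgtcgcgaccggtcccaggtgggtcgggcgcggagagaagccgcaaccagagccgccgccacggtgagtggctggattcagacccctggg
NFKB1 (chr4:102501109-102501408, plus strand): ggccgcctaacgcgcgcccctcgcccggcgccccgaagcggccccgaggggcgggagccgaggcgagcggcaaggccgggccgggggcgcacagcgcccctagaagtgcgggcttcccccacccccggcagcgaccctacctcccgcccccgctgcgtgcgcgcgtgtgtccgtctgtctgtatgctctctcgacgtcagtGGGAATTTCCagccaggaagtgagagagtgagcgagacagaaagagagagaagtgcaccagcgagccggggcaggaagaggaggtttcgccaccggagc
TNFAIP3 (chr6:137867009-137867308, plus strand): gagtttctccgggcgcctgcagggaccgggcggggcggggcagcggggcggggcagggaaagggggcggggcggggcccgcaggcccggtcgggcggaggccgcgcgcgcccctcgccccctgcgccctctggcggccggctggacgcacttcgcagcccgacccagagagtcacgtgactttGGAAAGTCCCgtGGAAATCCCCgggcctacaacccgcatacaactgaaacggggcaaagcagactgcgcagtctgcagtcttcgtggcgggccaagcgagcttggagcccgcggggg
The match of NFKBIA began 81 bases before the start site and that of NFKB1 49 bases before it. TNFAIP3 had 2 separate matches, at 67 and 55 bases, and the NFKB2 window shown had 2 separate stretches, at 107 and 78 bases. A match describes these letters and is not evidence of binding in these cells.

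On the deposited scale NFKBIA was higher after PRIMA-1Met in MM.1S and U266 and lower in 8226R5. In MM.1S the log2 values were 10.86 and 10.66 in the controls and 14.04 and 14.11 after PRIMA-1Met. In U266 they were 12.41 and 12.45 in the controls and 12.83 and 12.82 after treatment. In 8226R5 they were 12.41 and 12.29 in the controls and 11.25 and 11.23 after treatment. Treated and control arrays did not overlap in any line, with the treated arrays higher in MM.1S and U266 and lower in 8226R5. The rise in MM.1S was 3.31 ± 0.09 log2 units (SE, n = 2 per group), or 9.94-fold (limma adjusted p = 3.04e-09). The rise in U266 was 0.40 ± 0.09 log2 units (adjusted p = 0.0105), and in 8226R5 the gene fell by 1.11 ± 0.09 log2 units (adjusted p = 2.92e-04). In U266 the call was lost without the first control array (adjusted p = 0.0663) and when undetected probes were tested too (adjusted p = 0.0875).

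TNFAIP3, which encodes the ubiquitin-editing enzyme A20, fell in the 2 lines treated at 40 µM. Its log2 values in U266 were 10.26 and 10.33 in the controls and 8.93 and 8.92 after treatment. In 8226R5 they were 10.78 and 10.83, then 9.57 and 9.54. In MM.1S they were 10.62 and 10.57, then 10.51 and 10.41. In U266 and 8226R5 the treated arrays lay more than a full log2 unit under the controls, whereas in MM.1S the gap was of the size of the spread. The fall was 1.36 ± 0.07 log2 units in U266 (adjusted p = 5.37e-06) and 1.25 ± 0.07 in 8226R5 (adjusted p = 5.29e-05). The difference in MM.1S was -0.13 ± 0.07 log2 units and did not pass the test (adjusted p = 0.143). In U266 NFKBIA and TNFAIP3, both feedback genes of the pathway, thus went opposite ways on the deposited scale, and in 8226R5 both fell. The rise of NFKBIA in U266 depended on the scaling, as described below. Its signals there before normalization were 6567 and 6821 in the controls and 6493 and 6166 after treatment.

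**Figure D1:**
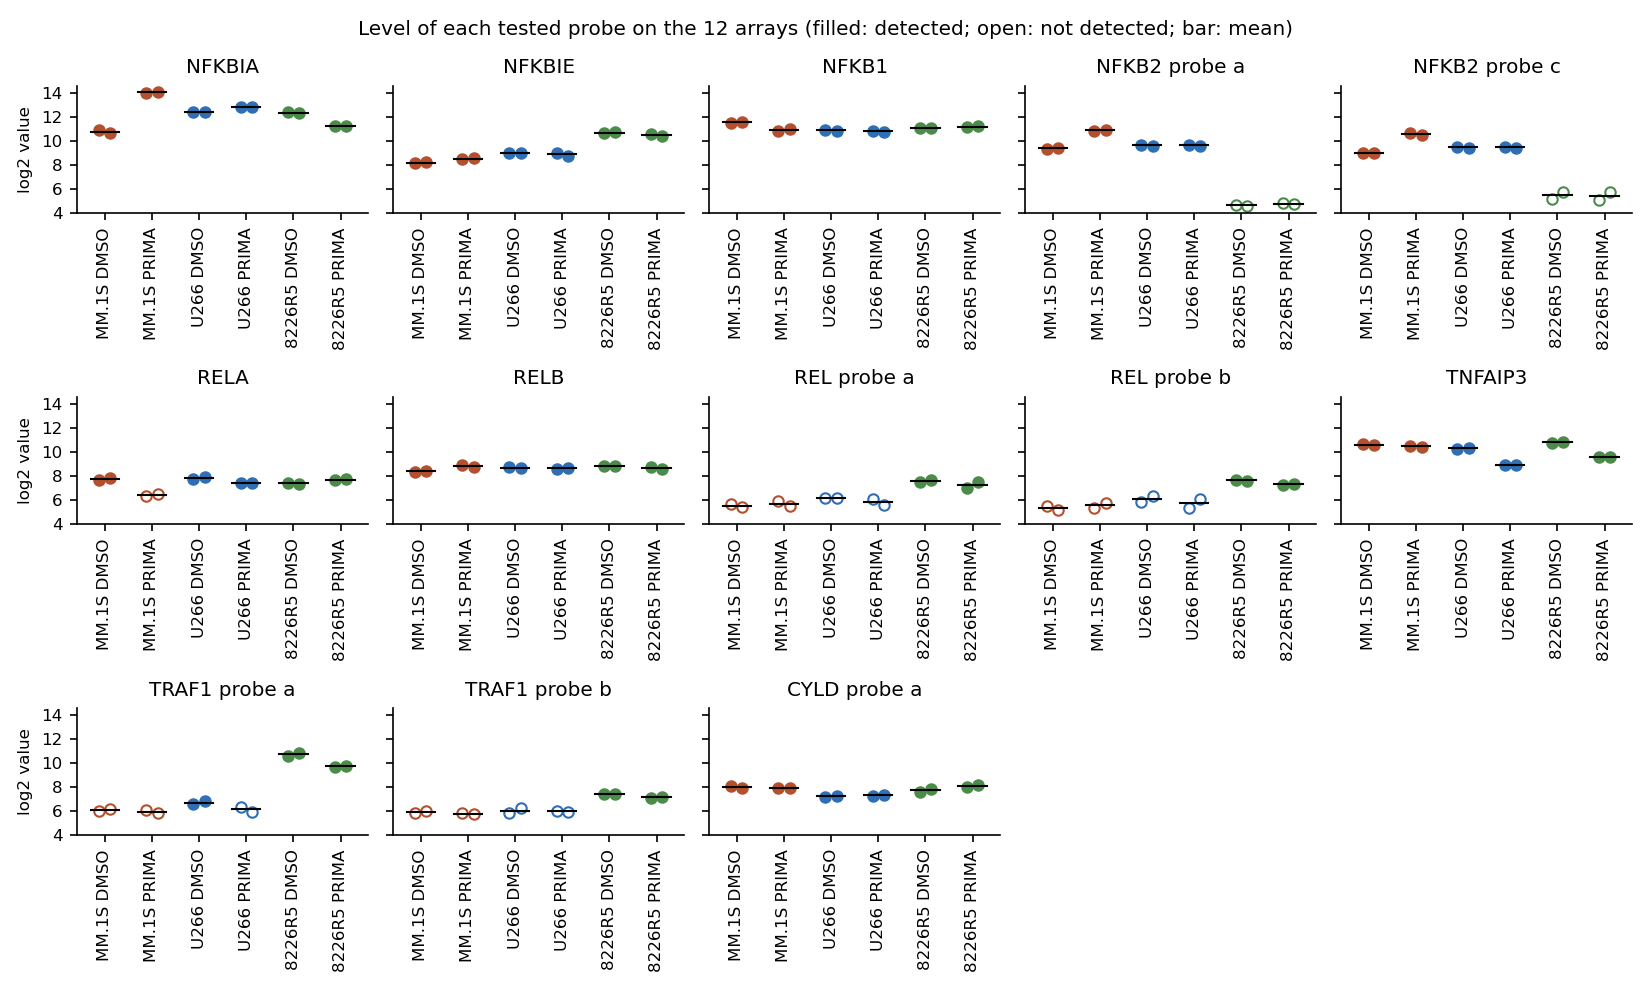
Deposited log2 values of the 13 tested probes on the 12 arrays (y axis, log2 value; x axis, line and treatment), with 1 point per array, filled where the probe was detected, and a bar at the mean of the 2 arrays. NFKBIA is highest in treated MM.1S at 14.04 and 14.11, TNFAIP3 is lower in the treated arrays of U266 and 8226R5, and both NFKB2 probes are undetected in 8226R5.

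Among the subunits, NFKB2, the precursor of the alternative branch, was higher after treatment in MM.1S on the deposited scale. Its probe a read 9.36 and 9.41 in MM.1S controls and 10.82 and 10.92 after treatment. In U266 the same probe read 9.65 and 9.57, then 9.68 and 9.60. In 8226R5 it was undetected on all arrays, with values between 4.55 and 4.81. The treated MM.1S arrays stood apart from their controls, and those of U266 overlapped theirs. Probe c read 8.97 and 8.96 in MM.1S controls and 10.63 and 10.50 after treatment, and was likewise undetected in 8226R5. The rise in MM.1S was 1.49 ± 0.08 log2 units by probe a (adjusted p = 3.69e-07) and 1.60 ± 0.21 by probe c (adjusted p = 8.17e-05). In U266 the differences were 0.03 and 0.01 log2 units, neither past the test.

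RELB, the partner of processed NFKB2, read 8.33 and 8.41 in MM.1S controls and 8.88 and 8.74 after treatment. Its rise was 0.44 ± 0.09 log2 units (adjusted p = 1.82e-03). NFKBIE, which encodes the inhibitor IkB-epsilon, read 8.15 and 8.20 in MM.1S controls and 8.44 and 8.54 after treatment. The treated arrays were higher for both genes, and the NFKBIE difference was 0.32 ± 0.09 log2 units (adjusted p = 8.73e-03). Without the first MM.1S control array NFKBIE missed the threshold at an adjusted p of 0.0501. In U266 and 8226R5 neither gene passed the test, with differences between -0.20 and -0.05 log2 units.

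The 2 subunits of the classical dimer were lower in treated MM.1S. NFKB1, the precursor of the p50 subunit, read 11.51 and 11.61 in the controls and 10.86 and 11.02 after treatment, and fell by 0.62 ± 0.09 log2 units (adjusted p = 1.94e-04). RELA, the p65 subunit, read 7.61 and 7.80 in the controls and 6.27 and 6.52 after treatment, where it was undetected on both arrays. Controls and treated arrays did not overlap for either gene. RELA was at least 1.59-fold lower (adjusted p = 3.13e-06), a bound that takes for each dim array the higher of the probe's own value and the lowest value of any probe detected there, on the deposited scale. In U266 RELA read 7.75 and 7.87 in the controls and 7.40 and 7.37 after treatment, and fell by 0.42 ± 0.11 log2 units (adjusted p = 0.0174). That call was lost when any of 3 of the 4 U266 arrays was left out (adjusted p up to 0.110). In 8226R5 RELA read 7.42 and 7.34, then 7.65 and 7.70, and the difference of 0.30 log2 units did not pass the test (adjusted p = 0.115). NFKB1 did not pass it in U266 (-0.06 log2 units) or in 8226R5 (0.12).

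TRAF1, an adaptor of TNF receptors whose gene is itself an NF-kB target, was detected on every array in 8226R5 only. Its probe a read 10.57 and 10.83 in the 8226R5 controls and 9.69 and 9.71 after treatment. The treated arrays were lower than both controls, and the fall was 1.00 ± 0.16 log2 units (adjusted p = 5.82e-03). Probe b read between 7.10 and 7.43 in that line, with a difference of -0.28 ± 0.12 that did not pass the test (adjusted p = 0.203), so the 2 probes did not agree on the call. Without the second 8226R5 control, probe a missed the threshold too (adjusted p = 0.0508). In U266 probe a read 6.53 and 6.79 in the controls and was undetected after treatment, at least 1.07-fold lower (adjusted p = 0.0288), a call lost without the second control (adjusted p = 0.176) or the second treated array (0.178). In MM.1S both TRAF1 probes were undetected on all arrays.

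REL, the subunit c-Rel, was detected in 8226R5 only, where probe a read 7.45 and 7.61 in the controls and 6.99 and 7.47 after treatment. Its differences there, -0.30 by probe a and -0.33 by probe b, did not pass the test. CYLD, a tumour suppressor that removes ubiquitin chains from NF-kB activating proteins, was detected on every array by probe a. It read 8.09 and 7.91, then 7.86 and 7.94 in MM.1S, 7.17 and 7.26, then 7.27 and 7.34 in U266, and 7.59 and 7.84, then 7.97 and 8.12 in 8226R5. Its treated and control arrays overlapped in MM.1S only, and no CYLD difference passed the test (adjusted p between 0.0941 and 0.580).

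**Figure D2:**
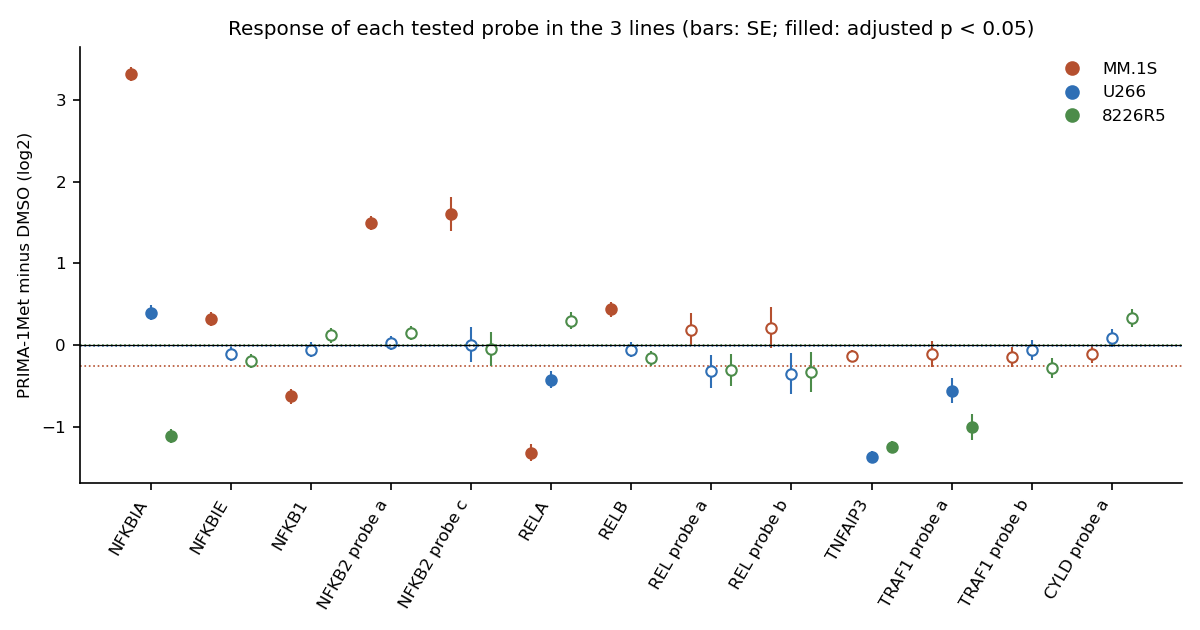
Log2 difference between PRIMA-1Met and DMSO for the 13 tested probes (y axis, log2; x axis, probe), with SE bars, 1 colour per line, filled points at an adjusted p under 0.05, and dotted lines at the median difference of all tested probes in each line. NFKBIA stands at 3.31 in MM.1S, 0.40 in U266 and -1.11 in 8226R5, and TNFAIP3 near -1.3 in U266 and 8226R5 only.

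In MM.1S 5 of the 13 probes rose and 2 fell, which is 4 genes up and 2 down, where 71.9% of all tested probes passed the same threshold, 25.9% up and 46% down. In U266 1 probe rose and 3 fell, against 26% of all probes (12% up, 14% down). In 8226R5 none rose and 3 fell, against 9.09% of all probes (5.02% up, 4.08% down). At an unadjusted p under 0.05 limma gave 2 up and 4 down there. All probes were not counted at that threshold, so these counts have no share to be set against. The median difference of the 13 probes was 0.19 log2 units in MM.1S, beside -0.25 for all tested probes, -0.06 beside -0.01 in U266 and -0.20 beside 0.00 in 8226R5. In MM.1S that median was the value of REL probe a and in U266 that of TRAF1 probe b. Each was undetected on all arrays of that line, so these medians are values of background. Changes of at least 2-fold, the size the study's design names, were met by 4, 1 and 2 of the 13 probes in MM.1S, U266 and 8226R5, beside 29.9%, 2.39% and 0.532% of all probes. Of all probes, 12.1% rose and 17.8% fell by that much in MM.1S, 0.997% and 1.39% in U266, and 0.253% and 0.279% in 8226R5.

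The deposited values force every array to the same distribution, and the treated MM.1S arrays were dim, so the signals were also scaled without that step, to a common median over all probes or over the probes detected on all 12 arrays. Both scalings were chosen after seeing the data. They moved the median change of all probes in MM.1S from -0.25 to -0.95 and 0.69 log2 units, and the split of all calls there from 5023 up and 8903 down to 1796 and 13557 or 12015 and 4266. Among the 13 probes the split went from 5 up and 2 down to 1 and 6 or 10 and 1. In U266 it went from 1 up and 3 down to 0 and 9 or 2 and 2, and in 8226R5 from 0 up and 3 down to 3 and 3 or 0 and 5. The 10 rises in MM.1S include both REL and both TRAF1 probes. These were undetected on all MM.1S arrays, so their rises are shifts of background. Over all probes the U266 split went from 2328 up and 2709 down to 766 and 10638 or 6055 and 2373. That of 8226R5 went from 971 up and 789 down to 6771 and 527 or 1122 and 2756.

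NFKBIA rose in MM.1S under both (2.76 and 4.40 log2 units), and NFKB1 fell under both (by 2.08 and by 0.44). RELA was lower under both (-1.72 and -0.08), the second not past the test. The NFKB2 difference by probe a was -0.05 or 1.59. The 2 scalings shift each array by a constant only, so a distance from the median of all probes is the same under both by construction. For NFKB2 probe a that distance was 0.91 log2 units, compared with 1.74 on the deposited values. RELB (-1.03 or 0.61) and NFKBIE (-1.07 or 0.56) changed sign between the 2 scalings and lay at -0.07 and -0.12 log2 units from the median of all probes, so the direction of their change in MM.1S depended on the scaling. The falls of TNFAIP3 in U266 (by 1.84 and by 1.32) and 8226R5 (by 0.95 and by 1.28), and of NFKBIA in 8226R5 (by 0.73 and by 1.05), were called under both. In MM.1S TNFAIP3 read -1.68, a call, or -0.04, and in U266 NFKBIA read 0.10, no call, or 0.62, so whether those 2 genes changed there depended on the scaling.

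**Figure D3:**
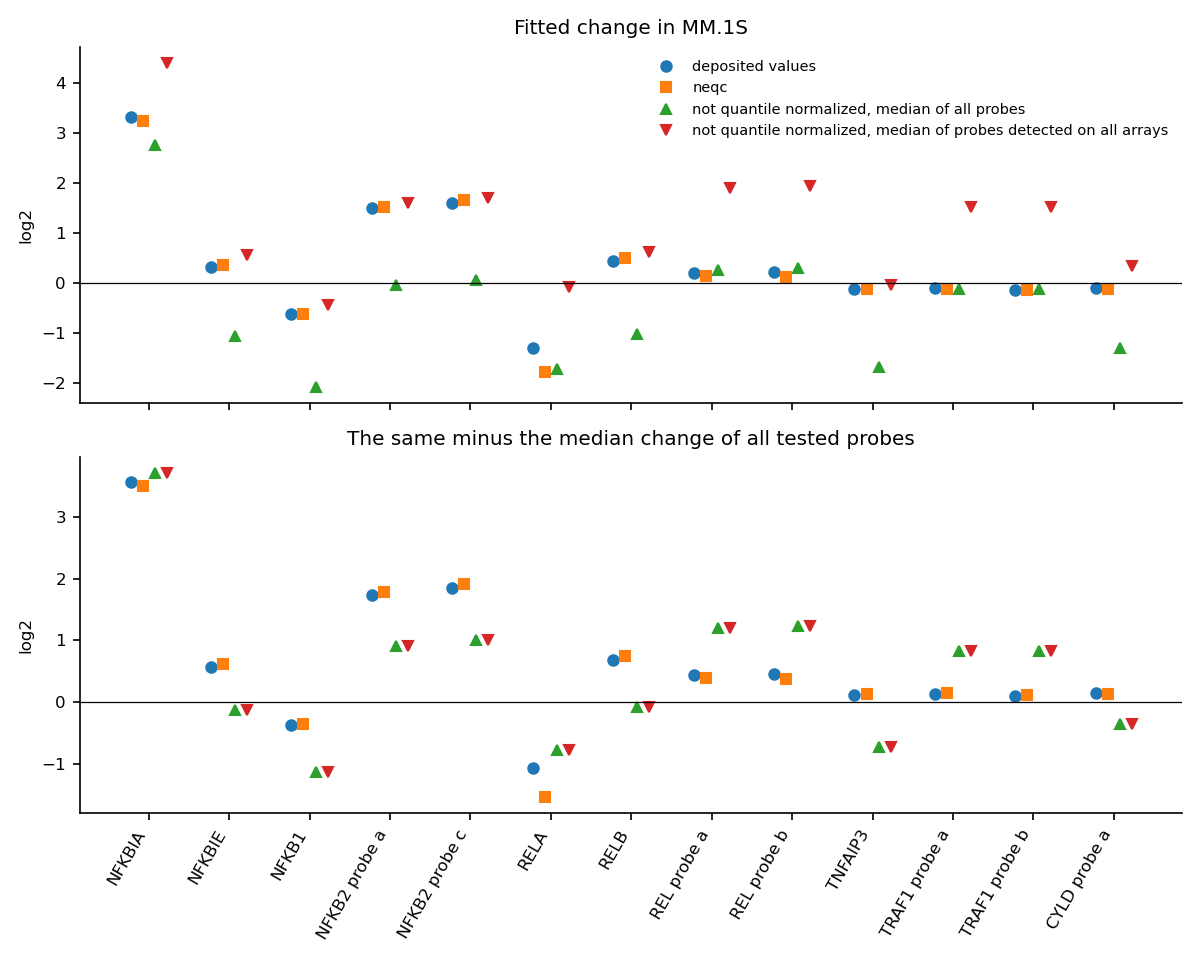
Response to PRIMA-1Met in MM.1S of the 13 tested probes under 4 scalings (y axis, log2; x axis, probe), as fitted (upper panel) and after subtraction of the median change of all tested probes (lower panel). In the lower panel the 2 scalings without quantile normalization coincide by construction. NFKBIA stays between 2.76 and 4.40 in the upper panel, NFKB2 probe a ranges from -0.05 to 1.59, and RELB and NFKBIE lie on both sides of 0.

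Whether the responses differed between lines was tested directly. At the same dose, 40 µM, U266 and 8226R5 differed for 2 of the 13 probes, 1 higher and 1 lower in U266, against 19.3% of all probes (8.49% higher, 10.8% lower). The NFKBIA response was 1.51 ± 0.13 log2 units higher in U266 (adjusted p = 1.14e-04) and that of RELA was lower, with a difference of -0.72 ± 0.15 (adjusted p = 0.0102). For TNFAIP3 the difference of the 2 responses was -0.12 log2 units with a 95% interval from -0.36 to 0.12, and did not pass the test (adjusted p = 0.486). Without quantile normalization it was -0.89, a call, with a common median over all probes and -0.04 with one over the detected probes. For TRAF1 probe a it was 0.44 log2 units, with an interval from -0.06 to 0.94.

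MM.1S, at 20 µM, differed from U266 for 8 of the 13 probes, with 6 responses higher and 2 lower in MM.1S, where 59.4% of all probes differed (22.6% higher, 36.8% lower). It differed from 8226R5 for 10 probes, 7 higher and 3 lower, where 63.5% of all differed (23.7% higher, 39.8% lower). The NFKBIA response was 2.91 ± 0.13 log2 units higher than in U266 (adjusted p = 4.05e-07) and 4.42 ± 0.13 higher than in 8226R5 (adjusted p = 3.56e-08). The TNFAIP3 response was higher by 1.23 ± 0.11 and 1.11 ± 0.11 log2 units (adjusted p = 1.38e-05 and 1.81e-05). Without quantile normalization, and with a common median over all probes, those TNFAIP3 differences became 0.16, no longer past the test, and -0.73 log2 units, a change of direction against 8226R5.

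Before treatment the lines already differed in many of these genes. Of the 13 probes 3 were higher and 7 lower in MM.1S than in U266 controls, where 57.1% of all probes differed (29.2% higher, 27.9% lower). The 7 include both REL probes, which were undetected on all 4 of those arrays. Against 8226R5, 5 were higher and 8 lower in MM.1S (60.5% of all, 30.9% higher and 29.6% lower), and 3 were higher and 7 lower in U266 (63.5% of all, 32.1% higher and 31.4% lower). NFKBIA was lower in MM.1S controls than in the others, with a log2 difference of -1.67 ± 0.09 against U266 (adjusted p = 2.80e-07) and -1.59 ± 0.09 against 8226R5 (adjusted p = 3.01e-07). U266 and 8226R5, next to each other in that order, did not differ beyond their spread (0.08 log2 units, 95% interval -0.12 to 0.28). After treatment MM.1S, the lowest before, was highest at a mean log2 value of 14.07, with U266 at 12.83 and 8226R5 at 11.24.

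NFKB2 was at least 6.88-fold higher by probe a and at least 5.14-fold by probe c in MM.1S than in 8226R5 controls, and at least 8.04-fold and 7.20-fold higher in U266 (adjusted p between 2.02e-10 and 4.53e-07). MM.1S and U266 lay close, with a difference of -0.23 log2 units by probe a (limma adjusted p = 0.0452) and -0.48 by probe c (adjusted p = 0.0749). The call by probe a was lost in 10 of the 12 fits without 1 array, among them those without any 1 of the 4 control arrays. It was also lost with a replicate block (adjusted p = 0.0549). The opposite order held for TRAF1 and REL. TRAF1 probe a was at least 18.6-fold higher in 8226R5 than in MM.1S controls (adjusted p = 9.56e-09), and U266 controls were lower than 8226R5 too, with a log2 difference of -4.04 ± 0.16 (adjusted p = 2.18e-08). Probe b was at least 1.90-fold higher in 8226R5 than in MM.1S and at least 2.00-fold higher than in U266. REL was at least 2.08-fold (probe a) and 2.21-fold (probe b) higher in 8226R5 than in MM.1S, and at least 2.20-fold and 2.34-fold higher than in U266.

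NFKBIE rose in steps across the control levels, with means of 8.17 ± 0.04 in MM.1S, 8.97 ± 0.02 in U266 and 10.69 ± 0.03 in 8226R5 (log2 value, SD, n = 2). All 3 pairs differed, with a log2 difference of -2.51 ± 0.09 between MM.1S and 8226R5 (adjusted p = 1.20e-08). TNFAIP3 had control means of 10.59 in MM.1S, 10.29 in U266 and 10.80 in 8226R5, a far narrower range. Its neighbours MM.1S and 8226R5 were separated by 0.21 log2 units (adjusted p = 0.0345). That call was lost in 6 of the 12 fits without 1 array, among them those without any 1 of the 4 control arrays compared. NFKB1 was highest in MM.1S, 0.69 log2 units above U266 (adjusted p = 1.37e-04) and 0.49 above 8226R5 (adjusted p = 1.21e-03), whereas U266 and 8226R5 did not differ past the test (-0.21, adjusted p = 0.0785). RELB control means ranged from 8.37 in MM.1S to 8.81 in 8226R5, RELA from 7.38 in 8226R5 to 7.81 in U266 and CYLD probe a from 7.21 in U266 to 8.00 in MM.1S.

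The rest of the pathway was read from lists of 73 genes in 6 groups, with 1 probe a gene, beside calls for 74.3% of all 11305 genes in MM.1S (24.1% up, 50.3% down), 26.5% in U266 (12.1% up, 14.5% down) and 9.17% in 8226R5 (4.13% up, 5.04% down). Of 10 receptors and ligands tested, 3 rose and 3 fell in MM.1S, 1 rose and 3 fell in U266 and 1 fell in 8226R5. TNFRSF17, which encodes the plasma cell receptor BCMA, fell by 1.36 log2 units in MM.1S (adjusted p = 7.04e-05) and by 1.23 in U266 (adjusted p = 1.13e-03). LTB, a ligand of the alternative branch, fell by 1.21 log2 units in U266, and its other probe was also lower there, at least 1.33-fold. TNF, the classical ligand, fell by 0.81 log2 units in 8226R5 (adjusted p = 0.0398), while its calls in MM.1S and U266 rested on arrays that were all undetected. TNFRSF1B, a TNF receptor, read 7.21 and 6.71 in MM.1S controls and was undetected after treatment (adjusted p = 2.43e-05).

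Of 9 adaptors tested, 2 rose and 5 fell in MM.1S, 1 rose and 1 fell in U266 and 1 fell in 8226R5. TRAF5 was at least 2.30-fold and MYD88, the adaptor of Toll-like receptors, at least 1.41-fold lower in treated MM.1S (adjusted p = 4.95e-07 and 2.43e-06). With a common median over the probes detected on all arrays and no quantile step, the MYD88 difference was -0.02 log2 units. BIRC2, a ubiquitin ligase, rose by 0.89 ± 0.14 log2 units in U266 by the probe chosen as brightest (adjusted p = 1.79e-03), and its other probe gave -0.11. TRAF3, a brake on the alternative branch that is often mutated in myeloma, fell in MM.1S to undetected levels, at least 1.17-fold (adjusted p = 4.39e-03), but read 0.53 log2 units higher under that same scaling, and did not pass the test in U266 (-0.11) or 8226R5 (-0.13). Of 7 kinases, 2 rose and 3 fell in MM.1S and none passed limma's test in U266 or 8226R5. There 3 and 1 had an unadjusted p under 0.05, a threshold at which all genes were not counted. MAP3K14, the kinase NIK that drives the alternative branch, rose by 0.56 ± 0.11 log2 units in MM.1S (adjusted p = 1.40e-03), with -0.55 or 1.09 under the 2 added scalings. CHUK, the kinase that NIK activates, fell by 0.84 ± 0.12 log2 units in MM.1S (adjusted p = 2.03e-04) and was called lower under both.

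Of 10 other inhibitors tested, 4 rose and 4 fell in MM.1S, 3 rose and 1 fell in U266 and 1 rose and 1 fell in 8226R5. NFKBIZ and BCL3 encode nuclear IkB proteins, which can also activate transcription. NFKBIZ read 8.09 and 8.05 in MM.1S controls and 11.58 and 11.54 after treatment, 9.51 and 9.57 then 10.12 and 10.15 in U266, and 9.37 and 9.40 then 9.96 and 9.86 in 8226R5. The treated arrays were higher in all 3 lines, by 3.49 ± 0.07 log2 units in MM.1S (adjusted p = 1.17e-09), 0.59 in U266 (adjusted p = 6.17e-04) and 0.52 in 8226R5 (adjusted p = 3.86e-03). With a common median over all probes and no quantile step the U266 difference was 0.07, not past the test. Its other probe rose in MM.1S (at least 4.05-fold) and in U266 (at least 1.04-fold) and read 0.24 in 8226R5, not past the test. NFKBIZ thus rose in 8226R5 where NFKBIA fell. BCL3 fell by 0.72 log2 units in both U266 and 8226R5 (adjusted p = 5.66e-04 and 1.94e-03). OTULIN, which removes linear ubiquitin chains, fell by 0.99 log2 units in MM.1S (adjusted p = 3.36e-06).

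Of 16 NF-kB target genes tested, 6 rose and 4 fell in MM.1S, 2 rose and 8 fell in U266, and none rose and 4 fell in 8226R5. At an unadjusted p under 0.05, where all genes were not counted, limma gave none up and 5 down in 8226R5. IER3, an early stress and NF-kB target, read 7.23 and 7.40 in MM.1S controls and 12.44 and 12.61 after treatment, a rise of 5.21 ± 0.11 log2 units (adjusted p = 1.19e-09). In U266 it was at least 1.92-fold higher after treatment, and in 8226R5 it fell by 1.11 ± 0.11 log2 units (adjusted p = 9.31e-04). GADD45B, a stress gene, rose by 2.45 ± 0.08 log2 units in MM.1S (adjusted p = 1.24e-08) and fell by 0.69 in 8226R5 (adjusted p = 1.80e-03). IRF1, a transcription factor of the interferon response, fell by 1.34 ± 0.08 log2 units in both U266 and 8226R5 (adjusted p = 7.33e-06 and 4.65e-05) and differed by -0.06 in MM.1S, where the 2 added scalings gave -1.53 and 0.11. IL6, a growth factor of myeloma cells, read 8.56 and 8.46 in U266 controls and 6.99 and 6.87 after treatment, a fall of 1.58 ± 0.08 log2 units (adjusted p = 4.15e-06). Without quantile normalization 4 rose and 8 fell, or 11 rose and 2 fell, among the targets in MM.1S. All tested probes there gave 1796 up and 13557 down, or 12015 and 4266. IER3 and GADD45B rose under both scalings.

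Of 10 tested genes of a myeloma NF-kB signature, 5 of which are among the genes described above, 5 rose and 4 fell in MM.1S, 2 rose and 2 fell in U266, and 1 rose and 3 fell in 8226R5. The rises in MM.1S include NFKBIA, NFKB2, NFKBIE and RELB, and the falls in 8226R5 include TNFAIP3 and NFKBIA. In U266 the rise of NFKBIA and the fall of TNFAIP3 are included. Those values were counted above already. PLEK, a signalling protein of blood cells in that signature, fell by 1.13 log2 units in MM.1S, 0.52 in U266 and 0.31 in 8226R5 (adjusted p = 1.10e-06, 1.39e-03 and 0.0386), with 0.01 in 8226R5 under a common median over all probes and no quantile step. TRAF2, BIRC3, RIPK1 and IRAK4 were not analysed here.

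The balance of rises and falls in these lists moved with the scaling, and so did that of all tested probes. Over all probes, not 1 a gene, the 2 added scalings gave 1796 up and 13557 down or 12015 and 4266 in MM.1S. They gave 766 and 10638 or 6055 and 2373 in U266, and 6771 and 527 or 1122 and 2756 in 8226R5. Without quantile normalization, with a common median over all probes or over the detected probes, the receptors and ligands gave 2 up and 7 down or 6 and 3 in MM.1S, 1 and 5 or 2 and 3 in U266, and 1 and 1 or 0 and 3 in 8226R5. The adaptors gave 0 and 8 or 4 and 3 in MM.1S, 1 and 6 or 2 and 2 in U266, and 1 and 0 or 0 and 3 in 8226R5. The kinases gave 0 and 6 or 4 and 2, then 0 and 5 or 2 and 0, then 3 and 0 or 0 and 1, in the same order of lines. Falls outnumbered rises in MM.1S and U266 for these 3 lists under the first scaling, and there were fewer falls under the second, as over all probes. The other inhibitors gave 1 and 8 or 6 and 3, then 0 and 6 or 4 and 1, then 5 and 1 or 1 and 3. The targets gave 1 and 11 or 4 and 8 in U266 and 3 and 4 or 0 and 4 in 8226R5. The signature gave 1 and 8 or 6 and 2, then 0 and 7 or 3 and 3, then 2 and 2 or 0 and 3.

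**Figure D4:**
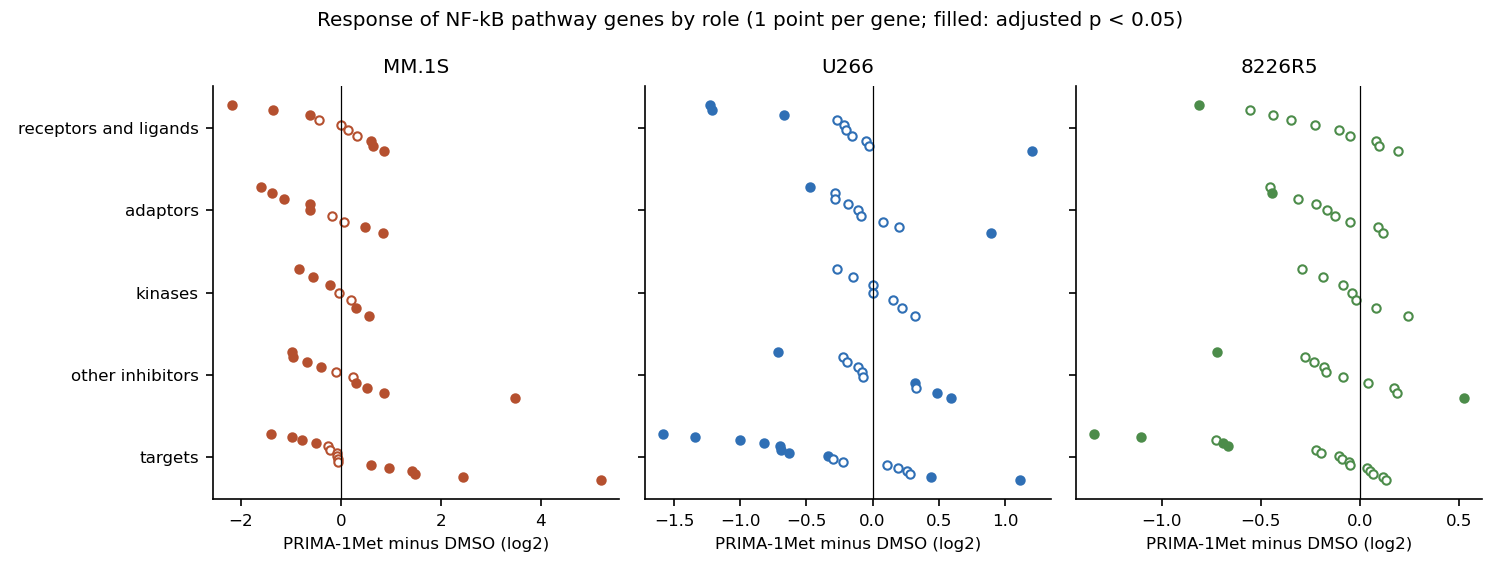
Log2 difference between PRIMA-1Met and DMSO (x axis) for the tested genes of 5 pathway lists (y axis), 1 point per gene, filled at an adjusted p under 0.05, with 1 panel per line and its own x scale. In MM.1S NFKBIZ at 3.49 and IER3 at 5.21 lie far to the right of the other genes, and in U266 and 8226R5 most of the called targets lie to the left of 0.

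The genes with the most similar responses were named by the Euclidean distance between their 3 responses (log2, MM.1S, U266 and 8226R5) and those of the member, over 11295 other genes. For TNFAIP3 the nearest was IRF1 at a distance of 0.12 log2 units, followed by CCDC71 at 0.47 and FZD2 at 0.56. For NFKBIA the nearest was EOMES at 0.49, with responses of 3.13, 0.20 and -0.69, then the probes of SNORA57 at 0.58 and H1-4 at 0.75. For NFKB2, read by probe c, the nearest were TAF6L at 0.05, ZNF688 at 0.08 and FBXW5 at 0.10. Its response in U266 was close to 0. In 8226R5 the probe was undetected on all arrays, so its value near 0 there is background and not a measured response. The distances describe these 3 lines only.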

How the data were processed

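The deposited table of single probes holds a signal in intensity units and a detection p-value for each probe and array, per the file headers. The deposited value table holds log2 values, which equal quantile-normalized log2 signals after each array's minimum was subtracted and 1.01 added, so that folds of dim probes are understated. BeadStudio, lumi and limma are named in the submitters' processing notes, and no source used here gives a genome build. The signals of 9 arrays were displaced by 1 row from probe 22924 on and were realigned before use.

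The log2 values were fitted per probe with limma 3.58.1 in R 4.3.3, as 6 group means over 12 arrays, with Benjamini-Hochberg adjustment over the 19357 probes detected (detection p under 0.01) on at least 2 of 12 arrays. A call is an adjusted p under 0.05. Of 47321 probes, 30111 had 1 gene symbol, 8 several and 17202 none in the platform annotation, which can be old. The fit was tested on simulated data. The members, lists and tests were chosen with earlier results of these data known. All member probes are described. From each pathway list and line up to 2 genes were named, those with the largest change past the threshold whose treated arrays both lay beyond both controls, with TRAF3 and MAP3K14 whatever their result and the 3 nearest genes by Euclidean distance for NFKBIA, TNFAIP3 and NFKB2, and 23 alternative settings were tried, of which 12 left out 1 array each and 2 were chosen after seeing the data (another normalization, detection filter, array weights, probe choice, replicate block and subset of arrays make up the rest). The number of arrays, 2 a group, limits the precision.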

Additional observations from a re-analysis of the deposited data

Results flagged for a closer look

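Responses that differed between lines by limma's test of the difference are collected here as log2 differences of the responses, with no explanation. Between U266 and 8226R5, at the same dose, NFKBIA (1.51) and RELA (-0.72) differed. Between MM.1S and U266, at different doses, the differences were 2.91 for NFKBIA, 0.43 for NFKBIE, -0.56 for NFKB1, 1.46 and 1.59 for NFKB2 probes a and c, -0.89 for RELA, 0.49 for RELB and 1.23 for TNFAIP3. Between MM.1S and 8226R5 they were 4.42 for NFKBIA, 0.51 for NFKBIE, -0.75 for NFKB1, 1.35 and 1.64 for NFKB2 probes a and c, -1.61 for RELA, 0.60 for RELB, 1.11 for TNFAIP3, 0.89 for TRAF1 probe a and -0.44 for CYLD probe a. Among these, NFKBIE in MM.1S against U266 missed the threshold without the second treated U266 array (adjusted p = 0.0512), and CYLD probe a missed it without any of 4 arrays (adjusted p up to 0.117). Differences that rest on undetected arrays are those of TRAF1 probe a (all MM.1S arrays), RELA in MM.1S against either line (treated MM.1S arrays) and both NFKB2 probes in MM.1S against 8226R5 (all 8226R5 arrays), so their sizes are not exact.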

How the results depend on the processing

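Differences past the threshold on the deposited values or under the other setting changed sign under the 2 added scalings without quantile normalization and under no other setting tried. Some that passed it in neither changed sign when 1 array was left out, as did TRAF1 probe a in MM.1S (-0.24 to 0.017) and NFKB2 probe c in 8226R5 (-0.36 to 0.27), each undetected there. Many of the differences listed next did not pass the threshold on the deposited values. These were all those in U266, in 8226R5 and between these lines, all those of TRAF1, and CYLD probe a in MM.1S. The TRAF1 probes in MM.1S and NFKB2 probe a in 8226R5 were undetected on all arrays of the line, so their differences are background. With a common median over all probes, the log2 differences turned to -1.07 for NFKBIE, -0.046 for NFKB2 probe a and -1.03 for RELB in MM.1S, and to -0.49 and -0.52 for NFKB2 probes a and c and -0.37 for CYLD probe a in U266. The differences between responses turned to -0.77 for NFKBIE and -0.70 for RELB (U266 against 8226R5), -0.43 and -0.45 (MM.1S against U266), and -1.20 and -1.15 (MM.1S against 8226R5), the last also with -0.066 for NFKB2 probe a and -0.73 for TNFAIP3. With a common median over the probes detected on all arrays they turned to 1.52 for both TRAF1 probes and 0.33 for CYLD probe a in MM.1S, 0.44 for TRAF1 probe b in U266 and -0.31 for NFKB2 probe a in 8226R5. The response differences became 0.34 for NFKB2 probe a (U266 against 8226R5), 0.33 for RELA and 1.08 for TRAF1 probe b (MM.1S against U266) and 0.032 for CYLD probe a (MM.1S against 8226R5). The cause was not tested.

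The number of the 13 probes called went from 4 to 9 in U266, 3 to 6 in 8226R5 and 2 to 8 for U266 against 8226R5 with a common median over all probes, and to 11 in MM.1S (from 7), 5 in 8226R5 and 5 for U266 against 8226R5 with one over the detected probes. Under the first, calls over all probes went from 5037 to 11404, 1760 to 7298 and 3744 to 12025, in the same order. Under the second they went to 16281 in MM.1S (from 13926), 3878 in 8226R5 and 7929 for U266 against 8226R5. The 11 probes of these genes called in MM.1S include both REL and both TRAF1 probes, undetected on all arrays there. With no detection filter the number of called probes of these genes fell to 1 in U266, 1 for U266 against 8226R5 and 5 (from 10) for MM.1S against U266 controls, and array weights gave 5 in 8226R5. With no detection filter all calls went from 5037 to 2426 in U266 and from 1760 to 325 in 8226R5, where array weights gave 3182. For U266 against 8226R5 and for MM.1S against U266 controls, no count over all probes without the filter is given here. The lower counts there thus have no share beside them and are not read as a trait of these genes. Leaving out 1 array left 1 array in its group, so counts of calls are not given for those fits. Some single calls lost in them are named above. The NFKBIA difference ranged from 3.21 to 3.42 log2 units in MM.1S, 0.38 to 0.42 in U266 and -1.16 to -1.05 in 8226R5. In U266 that of RELA ranged from -0.48 to -0.36 and that of TRAF1 probe a from -0.74 to -0.37. Samples with the same replicate number did not deviate together (correlations 0.0232, 0.0039 and 0.0123), so the numbers were not taken as pairing them. The replicate block gave 7, 3 and 3 probes in MM.1S, U266 and 8226R5, without TRAF1 probe a in U266 (adjusted p = 0.0762). Over all probes it gave 13818, 3916 and 843 calls.

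The main limits are 2 arrays a group, dim treated MM.1S arrays and a scale on which dim probes show compressed folds.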
